A study of Homo sapiens with 6 samples.

Results

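Genes that mark or drive the luminal lineage of the breast epithelium were followed in MDA-MB-231 cells with and without a hairpin against HOTAIR. The 10 members were chosen by name from the 65198 gene rows of the deposited table. They comprise 6 transcription factors (GATA3, FOXA1, TFAP2A, TFAP2C, ELF3 and SPDEF), 2 genes of the secretory pathway (AGR2 and MLPH) and 2 genes of the cell surface and junctions (CLDN4 and EPCAM). MDA-MB-231 is an established human breast cancer cell line, labelled as basal-like epithelial adenocarcinoma. In the group called shHOTAIR a short hairpin RNA under tetracycline control targeted the long non-coding RNA HOTAIR, and in the group called shCtrl the inducible hairpin had a scrambled sequence. Both groups received 1 µg/ml doxycycline for 96 h, so the inducer was present in the controls as well, and 3 independent repeats of each gave 6 poly(A) RNA libraries. The labels name 1 derivative per group, so each test sets the repeats of 1 derivative against those of another, and its p-value measures the spread between repeats.

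Luminal cells line the ducts and lobules of the breast and make and secrete milk. GATA3 and FOXA1 are transcription factors that act together with the oestrogen receptor to set up the luminal programme, FOXA1 as a pioneer factor that opens chromatin. TFAP2A and TFAP2C are AP-2 factors active in luminal and other epithelial cells, and ELF3 and SPDEF are ETS-family factors of glandular epithelia. AGR2 is a protein disulfide isomerase of the endoplasmic reticulum needed for mucin secretion, and MLPH (melanophilin) links Rab27A-bearing vesicles and granules to myosin V motors. CLDN4 is a tight junction claudin, and EPCAM is an epithelial adhesion protein.

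Expression was available as FPKM, fragments scaled by transcript length and library depth. How many fragments each library held is not known. Relative to the first shCtrl library, low values were spaced by 0.812 to 1 in shCtrl and by 0.595 to 0.717 in shHOTAIR. A single fragment thus counted for less FPKM in shHOTAIR. Summed FPKM was also lower there, 1.62e+06 to 1.82e+06 against 2.22e+06 to 2.57e+06 in shCtrl. Whether depth differed between the groups is therefore not known. HOTAIR itself was listed at 0, 0.0128 and 0.0132 FPKM in shCtrl 1, 2 and 3 and at 0, 0 and 0.0113 FPKM in shHOTAIR 1, 2 and 3 (exact two-sided permutation test, p = 0.4; with 3 libraries a group no p below 0.1 is possible). Its loss could therefore not be checked. The labelled cell type was checked against markers. The luminal keratins KRT8 and KRT18 were between 130 and 263 FPKM in every library, but the oestrogen receptor ESR1 averaged 0.0796 FPKM and the progesterone receptor PGR was listed at 0 throughout. The basal keratins KRT5, KRT14 and KRT17 averaged 0, 0.0153 and 0.0583 FPKM, and E-cadherin, CDH1, did not exceed 0.114 FPKM. Summed FPKM of 8 fibroblast markers was 2.72 to 3.50 in shCtrl and 4.58 to 5.98 in shHOTAIR, with DCN averaging 0.287 and LUM 0.107 FPKM. The collagen gene COL1A1 in this list averaged 1.33 FPKM in shCtrl and 3.51 FPKM in shHOTAIR and rose (log2 change 0.96, limma adjusted p = 0.00572). The part of these markers in the results below was not tested. The sum of 7 leukocyte markers was 21.7 to 22.8 in shCtrl and 16.4 to 19.9 in shHOTAIR. Nearly all of it was CD68, since PTPRC averaged 0.141 FPKM. The sum of 5 endothelial markers was 1.59 to 1.97 and 2.23 to 3.00 FPKM, with VWF averaging 0.0351.

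The luminal genes did not move as a block. MLPH and GATA3 rose, AGR2 and FOXA1 fell, TFAP2C and CLDN4 rose by smaller amounts, TFAP2A did not pass the test, and ELF3, SPDEF and EPCAM were barely expressed in either group. MLPH was 2.80-fold higher and AGR2 2.47-fold lower in shHOTAIR by the ratio of group means. Of the 10 members, 7 reached an average of 1 FPKM across all libraries and were tested, each of them with both group means above 1. By limma with Benjamini-Hochberg adjustment over all 15934 genes tested (threshold 0.05, on log2(FPKM + 1)), 4 of the 7 were higher in shHOTAIR, where 11.5% of all genes were, and 2 of the 7 were lower, where 12.4% of all genes were. Calls in either direction covered 23.8% of the genes tested. The groups did not overlap in the same 6 members, against 43% of all genes tested. The median log2 change was 0.31 over the 7 members and -0.03 over all genes tested. Leaving out 1 library at a time gave 2 to 4 members higher and 1 lower each time: 2 were higher without shCtrl 1, 2 or 3 or shHOTAIR 2 or 3, and FOXA1 was the member lost on the lower side. The count of genes called in all was 2508 without shCtrl 1 and 2470 without shCtrl 3, against 3797 with every library.

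**Figure D1:**
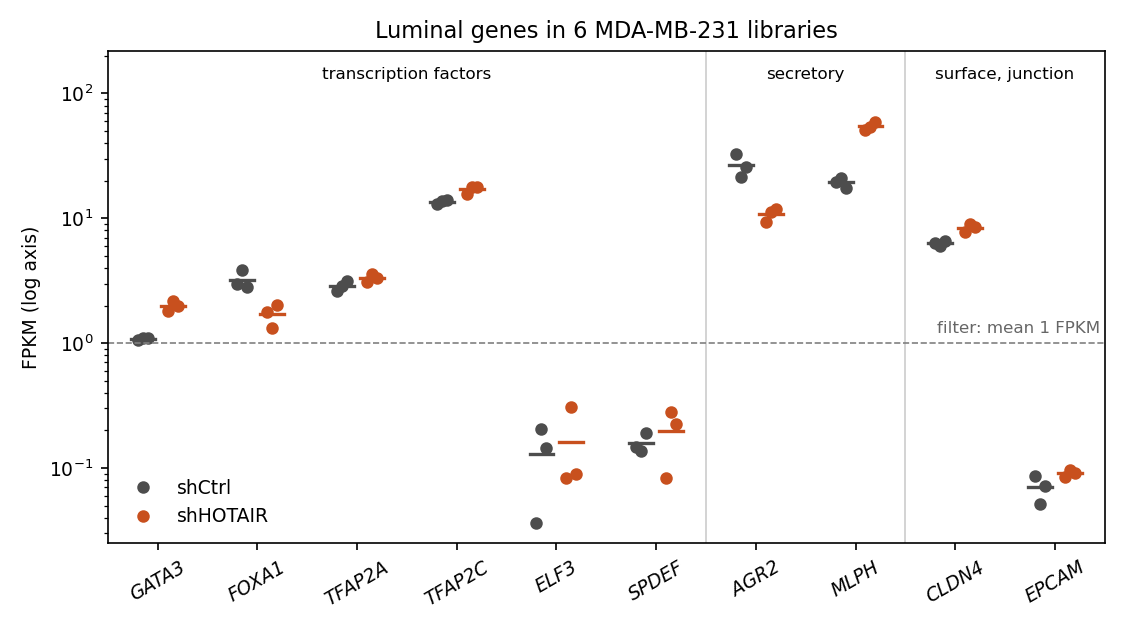
FPKM of the 10 members (log axis) in the 3 shCtrl and the 3 shHOTAIR libraries, 1 point per library, with bars at the group means. The dashed line marks the minimum mean of 1 FPKM for testing. MLPH, GATA3, TFAP2C and CLDN4 lie higher and AGR2 and FOXA1 lower in every shHOTAIR library than in any shCtrl library, and ELF3, SPDEF and EPCAM lie below 0.31 FPKM throughout.

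In shCtrl the members ranked by level, on the length-scaled FPKM scale, as AGR2, MLPH, TFAP2C, CLDN4, FOXA1, TFAP2A, GATA3, SPDEF, ELF3 and EPCAM. The ranges of FOXA1 and TFAP2A overlapped, as did those of SPDEF, ELF3 and EPCAM next to each other in that order, and all other neighbours were separate. In shHOTAIR the order was MLPH, TFAP2C, AGR2, CLDN4, TFAP2A, GATA3, FOXA1, SPDEF, ELF3 and EPCAM. There the ranges of GATA3 and FOXA1 overlapped, and so did those of SPDEF with ELF3 and ELF3 with EPCAM. AGR2 thus moved from the first to the third place and FOXA1 from the fifth to the seventh. MLPH, the most abundant member by its mean over 6 libraries (37.0 FPKM), exceeded 66.0% of the tested protein-coding genes, while GATA3 (1.53 FPKM) exceeded 3.69%.

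Among the transcription factors, GATA3 (ENSG00000107485, chromosome 10, 8045378 to 8075203 on GRCh38, plus strand) was at 1.06, 1.09 and 1.09 FPKM in shCtrl 1, 2 and 3 and at 1.79, 2.17 and 1.98 FPKM in shHOTAIR 1, 2 and 3. Every shHOTAIR library lay above every shCtrl library, and the shCtrl values hardly differed from each other. GATA3 averaged 1.08 ± 0.0195 FPKM in shCtrl and 1.98 ± 0.189 FPKM in shHOTAIR (SD, n = 3 in each group). It rose 1.83-fold, with a log2 change of 0.52 (SE 0.128, limma adjusted p = 0.0366). The added 1 shrinks the change of a gene at this level, and with an added 0.1 the log2 change was 0.81. The call held without each library in turn (limma adjusted p up to 0.0473) and was lost with a replicate block (0.129), with quantile normalization (0.0503) and when all genes above 0 were tested (0.0670). GATA3-AS1, a non-coding gene on the other strand within the GATA3 span, did not exceed 0.156 FPKM.

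GATA3 rose on a stretch of chromosome 10 whose genes were mostly lower in shHOTAIR. Of its 50 nearest tested protein-coding neighbours, 37 were lower and 1 was higher, with a median log2 change of -0.69. Over the whole chromosome 298 of 443 tested protein-coding genes were lower and 12 higher. The 3 nearest on the lower-coordinate side were all lower. TAF3, a subunit of the general transcription factor TFIID, was at 6.99 ± 0.169 FPKM in shCtrl and 4.34 ± 0.0722 FPKM in shHOTAIR, ATP5F1C, a subunit of the mitochondrial ATP synthase, at 392 ± 6.24 and 226 ± 8.86 FPKM, and KIN at 17.1 ± 0.694 and 9.05 ± 1.21 FPKM. On the other side the RNA-binding protein gene CELF2 (log2 change -0.71) and USP6NL (-0.55) fell, and ECHDC3 (-0.07) did not pass. The neighbour that rose was AKR1C3, a steroid-converting aldo-keto reductase, from 2.89 ± 0.462 to 6.51 ± 0.598 FPKM. These neighbours were singled out after their values were seen. Centred on its neighbours in each library, GATA3 had a log2 change of 1.21 (limma adjusted p = 0.00372). The part of the region's shift in the values of GATA3 was not tested.

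**Figure D2:**
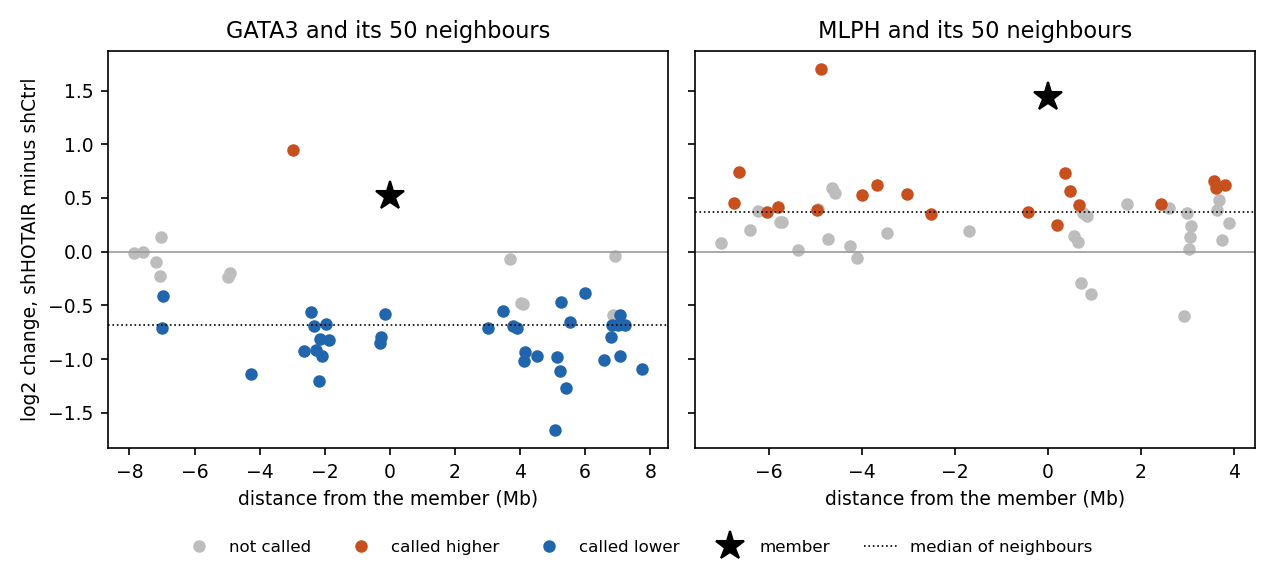
Log2 change (shHOTAIR minus shCtrl, of FPKM + 1) of the 50 nearest tested protein-coding genes of GATA3 (left) and MLPH (right) against their distance from the member in Mb, 1 point per gene, coloured by limma call; the star is the member and the dotted line the median of the neighbours. GATA3 stands at 0.52 over neighbours with a median of -0.69, and MLPH at 1.44 over neighbours with a median of 0.36.

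FOXA1 (ENSG00000129514, chromosome 14, 37589984 to 37596059, minus strand) went the other way. It was at 3.00, 3.83 and 2.79 FPKM in shCtrl 1, 2 and 3 and at 1.78, 1.31 and 2.01 FPKM in shHOTAIR 1, 2 and 3. All shHOTAIR values were below all shCtrl values. FOXA1 averaged 3.21 ± 0.546 FPKM in shCtrl and 1.70 ± 0.355 FPKM in shHOTAIR, and it fell (log2 change -0.64, SE 0.159, limma adjusted p = 0.0374). Its neighbours on chromosome 14 had a median log2 change of 0.10, with 4 higher and 4 lower of 50. The call rested on all 6 libraries, since leaving out shCtrl 1, 2 or 3 or shHOTAIR 1, 2 or 3 lost it (limma adjusted p 0.0535 to 0.0849). A replicate block also lost the call (0.132), as did testing all genes above 0 (0.0880). TTC6, which overlaps the start of FOXA1 on the other strand, did not exceed 0.378 FPKM.

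Because GATA3 and FOXA1 moved in opposite directions, their ratio within a library, which no scaling of the library can alter, shifted. FOXA1 over GATA3 was 2.84, 3.50 and 2.56 in shCtrl 1, 2 and 3 and 0.992, 0.603 and 1.01 in shHOTAIR 1, 2 and 3. FOXA1 was thus the more abundant of the pair in every shCtrl library and close to or below GATA3 in every shHOTAIR library (exact two-sided permutation test, p = 0.1, the smallest possible here). Because each gene alone already separated the groups, in opposite directions, this p-value was fixed in advance. It adds no evidence to the 2 separate changes.

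The RefSeq promoter windows of this pair (GRCh38.p14, 250 bases before to 50 after the start site nearest to the annotated principal transcript) are shown because the genes moved in opposite directions. Capitals mark matches, on either strand, to the motif letters AGATAA for GATA factors, TGTTTAC for forkhead factors, GCCNNNGGC for AP-2 factors and CCGGAA for ETS factors. The GATA3 window lies at chr10:8054438-8054737 on the plus strand and the FOXA1 window at chr14:37595200-37595499 on the minus strand, each written 5′ to 3′ on its own strand.
GATA3: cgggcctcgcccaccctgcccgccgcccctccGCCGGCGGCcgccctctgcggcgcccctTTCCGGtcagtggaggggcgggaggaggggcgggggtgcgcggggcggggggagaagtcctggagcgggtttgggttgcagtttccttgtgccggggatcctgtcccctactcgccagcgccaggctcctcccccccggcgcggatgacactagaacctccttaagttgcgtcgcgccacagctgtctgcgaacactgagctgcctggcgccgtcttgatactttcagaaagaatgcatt
FOXA1: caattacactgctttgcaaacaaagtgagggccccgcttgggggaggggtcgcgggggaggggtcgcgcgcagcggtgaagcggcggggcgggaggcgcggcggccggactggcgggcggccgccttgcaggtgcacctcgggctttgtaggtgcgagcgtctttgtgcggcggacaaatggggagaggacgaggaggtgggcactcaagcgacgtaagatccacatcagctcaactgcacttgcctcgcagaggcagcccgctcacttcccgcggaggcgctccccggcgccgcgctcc
In the GATA3 window an AP-2 match began at position -218 and an ETS match at -190, counted with the start site as 0. The FOXA1 window held none of the 4 letter strings.

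The AP-2 genes were steadier. TFAP2C (ENSG00000087510, chromosome 20, 56629302 to 56639283, plus strand) was at 13.0, 13.9 and 13.9 FPKM in shCtrl 1, 2 and 3 and at 15.6, 17.9 and 17.7 FPKM in shHOTAIR 1, 2 and 3. The groups did not overlap, and TFAP2C rose 1.26-fold, between means of 13.6 ± 0.491 and 17.1 ± 1.29 FPKM (log2 change 0.31, SE 0.0714, limma adjusted p = 0.0310). That call was lost without shCtrl 1, shCtrl 2, shCtrl 3, shHOTAIR 2 or shHOTAIR 3 (limma adjusted p up to 0.103). A replicate block also lost it (0.0667), as did testing all genes above 0 (0.0610). TFAP2A (ENSG00000137203, chromosome 6, 10393186 to 10419659, minus strand) was at 2.64, 2.87 and 3.15 FPKM in shCtrl 1, 2 and 3 and at 3.10, 3.56 and 3.31 FPKM in shHOTAIR 1, 2 and 3. The ranges overlapped at the highest shCtrl and the lowest shHOTAIR value. The log2 change of TFAP2A was 0.15 (SE 0.0990, limma adjusted p = 0.316), with a 95% interval from -0.09 to 0.40 that contains the change of TFAP2C. TFAP2C over TFAP2A was 4.42 to 4.94 in shCtrl and 5.03 to 5.36 in shHOTAIR, so TFAP2C was the main AP-2 transcript of this pair in every library.

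ELF3 and SPDEF were near the floor of the measurement. ELF3 (ENSG00000163435, chromosome 1, 202007945 to 202017188, plus strand) was at 0.0364, 0.205 and 0.145 FPKM in shCtrl 1, 2 and 3 and at 0.0831, 0.309 and 0.0896 FPKM in shHOTAIR 1, 2 and 3. The ranges of the groups overlapped widely, and the exact two-sided permutation p was 0.8. ELF3-AS1, which overlaps the start of ELF3 on the other strand, was listed at 1.44 to 2.43 FPKM, above ELF3 in every library. No source used here states a strand setting for the counting, so reads of the overlap cannot be told apart. SPDEF (ENSG00000124664, chromosome 6, 34537802 to 34556333, minus strand) was at 0.147, 0.136 and 0.191 FPKM in shCtrl 1, 2 and 3 and at 0.0837, 0.283 and 0.226 FPKM in shHOTAIR 1, 2 and 3. Both the lowest and the highest SPDEF value belonged to shHOTAIR (exact two-sided permutation p = 0.6). A difference in either gene was not detectable at these levels.

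In the secretory pair, MLPH showed the largest change of the 7 members tested. MLPH (ENSG00000115648, chromosome 2, 237485428 to 237555318, plus strand) was at 19.6, 21.1 and 17.6 FPKM in shCtrl 1, 2 and 3 and at 50.7, 53.7 and 59.1 FPKM in shHOTAIR 1, 2 and 3. The lowest shHOTAIR library was far above the highest shCtrl library. MLPH averaged 19.4 ± 1.74 FPKM in shCtrl and 54.5 ± 4.23 FPKM in shHOTAIR, and it rose (log2 change 1.44, SE 0.0899, limma adjusted p = 0.00078), a change larger in size than that of 95.2% of the genes tested. The genes around it were higher too, with 19 of its 50 neighbours higher, 0 lower and a median log2 change of 0.36. Among the closest, COPS8, a subunit of the COP9 signalosome, was at 88.1 ± 5.84 FPKM in shCtrl and 114 ± 10.95 FPKM in shHOTAIR, and LRRFIP1 at 47.6 ± 1.15 and 57.0 ± 3.31 FPKM. Centred on its neighbours, MLPH had a log2 change of 1.10 (limma adjusted p = 0.00176).

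AGR2 (ENSG00000106541, chromosome 7, 16791811 to 16833433, minus strand) was at 32.6, 21.5 and 26.0 FPKM in shCtrl 1, 2 and 3 and at 9.27, 11.2 and 11.9 FPKM in shHOTAIR 1, 2 and 3. The shCtrl libraries varied more among themselves than the shHOTAIR libraries, but the groups were well apart. AGR2 averaged 26.7 ± 5.57 FPKM in shCtrl and 10.8 ± 1.38 FPKM in shHOTAIR, and it fell (log2 change -1.22, SE 0.169, limma adjusted p = 0.00617), and its call held without each library in turn (limma adjusted p up to 0.0339). Its 50 neighbours had a median log2 change of -0.05, with 3 higher and 6 lower. The closest on the lower-coordinate side, the tetraspanin gene TSPAN13, was at 2.23 ± 0.404 FPKM in shCtrl and 4.22 ± 0.192 FPKM in shHOTAIR, and the closest on the other side, the aryl hydrocarbon receptor gene AHR, at 41.6 ± 4.73 and 43.0 ± 7.22 FPKM. MLPH over AGR2 was 0.602, 0.979 and 0.677 in shCtrl 1, 2 and 3 and 5.47, 4.79 and 4.95 in shHOTAIR 1, 2 and 3. MLPH was thus below AGR2 in every shCtrl library and above it in every shHOTAIR library (exact two-sided permutation p = 0.1). Each gene alone already separated the groups, in opposite directions. That fixed the p-value of the ratio, which therefore adds no evidence.

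The promoter windows of MLPH (chr2:237487001-237487300, plus strand) and AGR2 (chr7:16804950-16805249, minus strand) are shown as those of the member that rose most and the member that fell most, with the same capitals.
MLPH: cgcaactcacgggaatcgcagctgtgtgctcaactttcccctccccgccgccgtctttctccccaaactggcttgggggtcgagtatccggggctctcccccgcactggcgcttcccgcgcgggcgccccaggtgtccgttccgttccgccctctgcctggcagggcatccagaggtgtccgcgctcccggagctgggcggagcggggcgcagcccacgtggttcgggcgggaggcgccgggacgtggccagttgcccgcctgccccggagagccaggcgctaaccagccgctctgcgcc
AGR2: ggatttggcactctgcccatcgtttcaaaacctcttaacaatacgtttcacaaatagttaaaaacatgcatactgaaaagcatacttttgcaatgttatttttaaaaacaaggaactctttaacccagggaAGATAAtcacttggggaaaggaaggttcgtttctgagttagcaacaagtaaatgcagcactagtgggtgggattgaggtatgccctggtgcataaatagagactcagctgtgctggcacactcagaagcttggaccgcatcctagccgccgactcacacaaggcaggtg
The AGR2 window was the poorer in G and C (43.7%, against 72.7% for MLPH and a median of 58.7% over all windows) and held a GATA match from position -119. The MLPH window held none of the 4 letter strings. Windows were found for 8 of the 10 members. Among the window of each member nearest to its principal start, 1 of 8 held a GATA match, 1 of 8 an AP-2 match, 1 of 8 an ETS match and 0 of 8 a forkhead match. For TFAP2A the start site of that window lies 3469 bases from the principal start. Over all 35116 windows of the same length the shares were 10.3%, 23.2%, 17.2% and 3.42%.

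**Figure D3:**
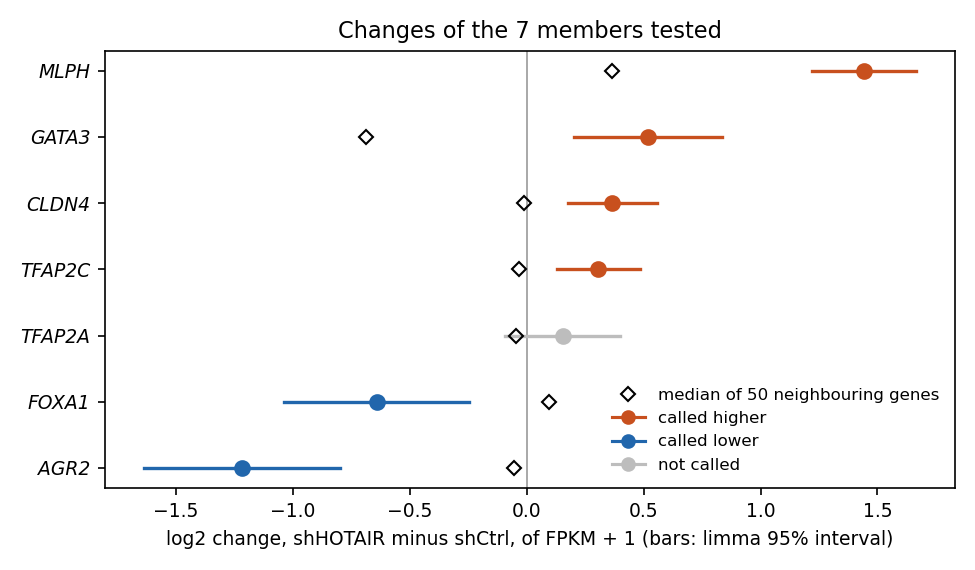
Log2 change (shHOTAIR minus shCtrl, of FPKM + 1) of the 7 members tested with the limma 95% interval, coloured by call; open diamonds are the median change of the 50 nearest tested protein-coding genes. MLPH (1.44) and AGR2 (-1.22) have the largest changes, and the GATA3 neighbours (-0.69) lie on the other side of 0 from GATA3 (0.52).

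Of the surface genes, CLDN4 (ENSG00000189143, chromosome 7, 73799542 to 73832693, plus strand) was at 6.35, 5.99 and 6.56 FPKM in shCtrl 1, 2 and 3 and at 7.72, 8.99 and 8.57 FPKM in shHOTAIR 1, 2 and 3. The groups did not overlap, and CLDN4 rose 1.34-fold, between means of 6.30 ± 0.287 and 8.43 ± 0.643 FPKM (log2 change 0.37, SE 0.0768, limma adjusted p = 0.0222). That call was lost without shCtrl 1, shCtrl 2, shCtrl 3, shHOTAIR 2 or shHOTAIR 3 (limma adjusted p up to 0.0789). A replicate block also lost it (0.0875), as did testing all genes above 0 (0.0517). Its neighbours had a median log2 change of -0.01. EPCAM (ENSG00000119888, chromosome 2, 47345158 to 47387601, plus strand) was at 0.0862, 0.0517 and 0.0723 FPKM in shCtrl 1, 2 and 3 and at 0.0843, 0.0957 and 0.0910 FPKM in shHOTAIR 1, 2 and 3. The EPCAM ranges overlapped (exact two-sided permutation p = 0.2), and shHOTAIR libraries held the 2 highest values. EPCAM was the lowest of the 10 members in both groups.

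The other genes around the members came from 8 lists of relatives, cofactors, partners and luminal markers, 135 genes without the members, of which 82 were tested. Of these 14 were higher and 17 lower in shHOTAIR, and their median log2 change was 0.07. The share called, 31 of 82, stands beside 23.8% over all genes. Without shCtrl 2 the number higher was 8 and without shHOTAIR 2 it was 9. The number lower was 9, 11, 8 and 9 without shCtrl 1, shCtrl 2, shCtrl 3 and shHOTAIR 2, and 9 with regional centring, that is, with each gene centred on its neighbours.

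Luminal markers went both ways, with 3 higher and 3 lower of 11 tested and 25 listed. KRT18 was at 149, 142 and 160 FPKM in the shCtrl libraries and at 207, 239 and 251 FPKM in the shHOTAIR ones (log2 change 0.62, limma adjusted p = 0.00706). KRT8 (0.75) was also among those that rose, and KRT19 (-0.59), the zinc transporter SLC39A6 (-0.35) and XBP1 (-0.40), a transcription factor of secretory cells, fell. Leaving out some single library lost the calls of KRT8, KRT19 and SLC39A6 (limma adjusted p up to 0.0526, 0.0796 and 0.0534), and regional centring those of SLC39A6 (0.550) and XBP1 (0.0555). PGR, TFF1, TFF3, AGR3 and TBX3 were listed at 0 in all 6 libraries. KRT8 and KRT18 overlap at their ends on opposite strands, so they may share reads.

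Within their families GATA3 and FOXA1 were not the most abundant genes. FOXA2, singled out after its values were seen, was at 26.5 FPKM in shCtrl and 24.4 FPKM in shHOTAIR (limma adjusted p = 0.254), well above FOXA1 in both groups. FOXA3 was below the minimum mean for testing. It was at 1.19, 0.937 and 0.968 FPKM in the shCtrl libraries and at 0.416, 0.407 and 0.210 FPKM in the shHOTAIR ones. GATA6 was at 6.59, 7.03 and 6.27 FPKM in the shCtrl libraries and at 5.98, 5.17 and 5.40 FPKM in the shHOTAIR ones, above GATA3 in every library, with a log2 change of -0.23 that did not pass (limma adjusted p = 0.0952). Of 9 tested genes of this list 1 rose, the LIM-only cofactor LMO4 (log2 change 0.25), and 1 fell, its binding partner LDB1 (-0.51), while the corepressor TLE1 (0.15) did not pass. The LMO4 call was lost without shCtrl 1, shCtrl 2 or shHOTAIR 2 (limma adjusted p up to 0.0533), and that of LDB1 without shCtrl 3 (0.0510). Centred on its neighbours, LMO4 had a log2 change of 0.097 and did not pass either (limma adjusted p = 0.311). LDB1 lies on chromosome 10, where its neighbours had a median of -0.56, and centred on them its log2 change was 0.05 (limma adjusted p = 0.743).

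Of the 6 tested relatives and cofactors of the AP-2 factors 0 rose and 2 fell by limma's adjusted p, with 1 higher and 2 lower at an unadjusted p under 0.05. These were the AP-2 coactivators CITED2, at 85.0, 71.2 and 80.0 FPKM in shCtrl and 55.1, 54.9 and 52.5 FPKM in shHOTAIR (log2 change -0.53, limma adjusted p = 0.00675), and CITED1 (-0.63), whose call was lost without shCtrl 1, shCtrl 3, shHOTAIR 2 or shHOTAIR 3 (limma adjusted p up to 0.0846). With regional centring CITED2 had a log2 change of -0.35 (limma adjusted p = 0.0323), and the call of CITED1 was lost (0.0623). WWOX (0.36) and YEATS4 (0.14) did not pass.

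The ETS factors held the largest change among the listed partners. EHF, an epithelial ETS factor closely related to ELF3, was at 20.7, 17.4 and 17.1 FPKM in shCtrl 1, 2 and 3 and at 2.59, 4.28 and 3.56 FPKM in shHOTAIR 1, 2 and 3. It fell 5.29-fold by group means (log2 change -2.13, limma adjusted p = 0.00122) and by -2.07 when centred on its neighbours. ELF5, a factor of milk-secreting luminal progenitors, averaged 0.00718 FPKM. Of 12 tested genes of this list 2 rose, ELF4 (log2 change 0.79) and ETS2 (0.38), and 3 fell, with EHF and ELF1 (-0.45) among them. ELF4 and ETS2 lay among neighbours with medians of 0.65 and 0.30 and no longer passed when centred on them (limma adjusted p = 0.357 and 0.586).

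Among 12 tested genes of secretory protein folding, 0 rose and 2 fell by limma's adjusted p, while at an unadjusted p under 0.05 there were 5 higher and 3 lower. The balance depended on the setting, with 2 higher and 1 lower under regional centring, and 1 higher under median-of-ratios scaling, under quantile normalization, without shCtrl 1 and without shHOTAIR 1. The chaperone HSPA5 (BiP) was at 217, 185 and 203 FPKM in the shCtrl libraries and at 142, 154 and 146 FPKM in the shHOTAIR ones (log2 change -0.45, limma adjusted p = 0.0104), and XBP1 fell as above. ERO1A (0.27) and ERN1 (-0.41), an oxidase and a stress sensor of the endoplasmic reticulum, did not pass. AGR2's close relative AGR3 and the mucin MUC5AC were listed at 0 in all libraries, and MUC1 averaged 0.671 FPKM.

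Among the genes of Rab27 vesicle transport, which include other Rab27 effectors beside partners of MLPH, 1 rose and 3 fell of 11 tested. RAB27A, the small GTPase that binds MLPH, was at 9.48, 9.09 and 9.87 FPKM in the shCtrl libraries and at 11.9, 11.8 and 13.0 FPKM in the shHOTAIR ones (log2 change 0.33, limma adjusted p = 0.0175). The myosin MYO5C (-0.58) and the Rab27 effectors SYTL2 (-0.54) and EXPH5 (-0.42) fell. All 4 calls depended on single libraries, with adjusted p up to 0.0664 for RAB27A, 0.0691 for MYO5C, 0.0730 for SYTL2 and 0.105 for EXPH5 when 1 library was left out. Regional centring also lost the calls of SYTL2 (limma adjusted p = 0.1001) and EXPH5 (0.0846). MYO5A, the motor that MLPH recruits, averaged 22.8 FPKM in shCtrl and 19.8 FPKM in shHOTAIR without passing the test (limma adjusted p = 0.0812).

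In the tight junction list 1 rose and 3 fell of 11 tested and 30 listed. The polarity protein gene PARD3 was at 48.9, 45.6 and 49.5 FPKM in the shCtrl libraries and at 25.5, 26.0 and 26.6 FPKM in the shHOTAIR ones (log2 change -0.86, limma adjusted p = 0.000737). PARD3 lies on chromosome 10, among neighbours with a median of -0.54, and centred on them it had a log2 change of -0.35 (limma adjusted p = 0.0158). The claudins CLDN12 (-0.55) and CLDN22 (-0.61) fell, and the junctional adhesion molecule F11R (0.59) rose, each call being lost without some single library (limma adjusted p up to 0.0569, 0.0706 and 0.0756). Regional centring also lost the calls of CLDN22 (log2 change -0.30, limma adjusted p = 0.282) and F11R (0.0722). CLDN3, another claudin of luminal cells, averaged 0.00441 FPKM. CLDN7, below the minimum mean for testing, was at 1.67, 1.08 and 1.35 FPKM in the shCtrl libraries and at 0.321, 0.287 and 0.293 FPKM in the shHOTAIR ones.

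The list of EPCAM partners had the most rises, 6 higher and 1 lower of 11 tested, with a list median of 0.23. Over all genes tested 11.5% were higher and 12.4% lower. Without shCtrl 1 the number higher in this list was 4. CLDN7, given above, is also on this list and was lower in every shHOTAIR library, but was not tested. SPINT2, an inhibitor of membrane serine proteases, was at 55.2, 57.1 and 59.8 FPKM in the shCtrl libraries and at 91.3, 111 and 105 FPKM in the shHOTAIR ones (log2 change 0.82, limma adjusted p = 0.00256). SPINT1, a second inhibitor of this kind, was at 0.560, 0.363 and 0.366 FPKM in the shCtrl libraries and at 1.92, 2.95 and 2.72 FPKM in the shHOTAIR ones (log2 change 1.29), and it reached the minimum mean for testing only through the shHOTAIR libraries. The proteases they restrain stayed near 0, with ST14 averaging 0.0476 and PRSS8 0.0406 FPKM. LEF1 (0.56), which acts with the cleaved EPCAM tail and beta-catenin, CTNNB1 (0.23) and ADAM10 (0.32) rose, and FHL2 (-0.27) fell. CTNNB1 and ADAM10 lost their calls without any of 5 libraries each, with adjusted p up to 0.0852 and 0.127, and LEF1 and FHL2 when centred on their neighbours (limma adjusted p = 0.102 and 0.103).

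**Figure D4:**
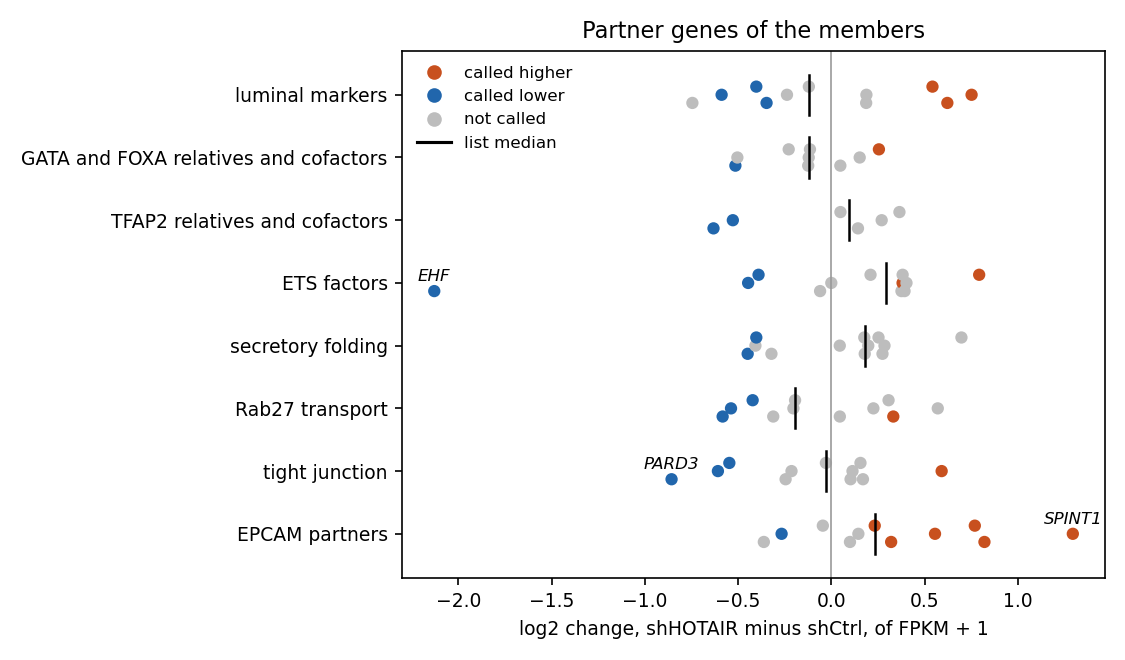
Log2 change (shHOTAIR minus shCtrl, of FPKM + 1) of the tested genes of the 8 partner lists, 1 point per gene and list, coloured by limma call, with a bar at each list median. EHF (-2.13) among the ETS factors and SPINT1 (1.29) among the EPCAM partners have the largest changes, and the list medians lie between -0.19 and 0.29.

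Basal markers, the counterpart of the luminal lists, had 3 higher and 1 lower of 6 tested and 14 listed. EGFR was at 80.9, 78.7 and 70.4 FPKM in the shCtrl libraries and at 155, 150 and 165 FPKM in the shHOTAIR ones, and caveolin, CAV1, at 117, 114 and 119 and at 210, 214 and 230 FPKM, with log2 changes of 1.02 and 0.90 (limma adjusted p = 0.0011 and 0.000725). VIM, a mesenchymal filament gene on chromosome 10, fell (-1.27), and centred on its neighbours, which had a median of -0.71, it had a log2 change of -0.51 (limma adjusted p = 0.00787). The list's summed FPKM was 1188 to 1253 in shCtrl and 828 to 905 in shHOTAIR.

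For each member tested, the protein-coding gene with the most similar profile was sought among 11586 candidates, by the root mean square distance of log2(FPKM + 1) centred on the shCtrl mean over 6 libraries. These were DCBLD2 for GATA3 (distance 0.0315), IKZF5 for FOXA1 (0.0207), RBM15B for TFAP2A (0.0119), IFT140 for TFAP2C (0.0220), DGKI for AGR2 (0.0980), VIPR1 for MLPH (0.0628) and PRKAG2 for CLDN4 (0.0280). DGKI, on chromosome 7 like AGR2, was at 19.7 FPKM in shCtrl and 7.77 FPKM in shHOTAIR, and VIPR1 at 1.27 and 5.30 FPKM. The measure rewards a like size of change and a like spread and carries no test.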

How the data were processed

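Poly(A) RNA of 6 MDA-MB-231 cultures was sequenced, 3 per group, per the labels' protocols. Libraries were grouped by the hairpin their labels name. The authors deposited FPKM values, 1 column per library. TopHat2 2.0.13, DESeq and GRCh38 are named in the submitters' processing notes, with no role or order. The program, annotation and strand setting behind the FPKM are not stated. Of 65198 gene rows, 56807 matched GENCODE 29, which gave symbols and positions, and 8391 did not. The 15934 genes averaging 1 FPKM or more were tested on log2(FPKM + 1), with no other scaling. The test was limma's moderated test (version 3.58.1, R 4.3.3) with a trend on intensity and without a replicate block. Its p-values were adjusted over all genes by Benjamini-Hochberg, with a threshold of 0.05. The script was tested on simulated data. A region is the 50 nearest tested protein-coding genes, 25 on each side where the chromosome holds as many. GATA3, near a chromosome end, had 23 and 27. Regional centring subtracts their median deviation in each library. The spacing of low values is the commonest ratio, to the first shCtrl library, of values between 0.001 and 0.1 FPKM (tolerance 0.01, log2). Promoter windows came from RefSeq (GRCh38.p14). Python 3.11.15 with pandas 2.3.3 and matplotlib 3.10.9 was used. Some listed genes are counted but not reported by name here. The members and lists were chosen with earlier results of these data known. All members, up to 4 genes per list with the smallest p, further called list genes, nearest profiles and overlapping genes were named. Alternatives were another pseudocount, other filters, scalings and limma settings, a replicate block, regional centring and each library left out. The number of libraries limits precision, and fragment counts are not known.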

Additional observations from a re-analysis of the deposited data

How the results depend on the processing

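No alternative reversed a member's direction. AGR2 and MLPH kept their calls under all 14 alternatives run for each (log2 change -1.36 to -1.07 and 1.10 to 1.50), and TFAP2A did not pass in any of its 13. Genes called in all numbered 3797, against 1740 with the replicate block, 2396 with regional centring and 2470 to 3159 with 1 library left out. Members higher numbered 4, against 1 without a filter on low values, 1 with the replicate block and 2 to 4 with 1 library left out. Members lower numbered 2, against 1 without a filter, 1 with a minimum mean of 5 FPKM (which removes FOXA1), 1 with the replicate block and 1 with any library left out. Listed partners numbered 14 higher and 17 lower, against 5 and 8 with the replicate block, 9 lower with regional centring, and 8 to 14 higher and 8 to 15 lower with 1 library left out. LDB1 had a log2 change of 0.052 with regional centring. The fibroblast marker PDGFRB (log2 change -0.09, not called) ranged from -0.29 to 0.086 with 1 library left out, above 0 without shCtrl 1 or shHOTAIR 3. The replicate numbers do not pair the libraries: deviations of same-numbered libraries correlated at -0.14 to -0.05, and 0 of 6 libraries correlated best with their own number. Of 36 list genes called, 19 kept their calls without each library in turn. No scaling moved the median log2 change of all genes by more than 0.1. The cause of these differences was not tested. Fragment counts are not known, so the level at which ELF3, SPDEF and EPCAM could be told apart from 0 is not known either.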
